A study of Homo sapiens with 12 samples.

Results

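The intracellular triglyceride lipases considered here are *PNPLA2*, *PNPLA3*, *ABHD5*, *LIPE*, *MGLL* and *LIPA*, 6 of the 23705 genes in the count table. They were chosen by name, as genes of the breakdown of stored triglyceride, and were found through their NCBI gene numbers. All 6 were among the 13522 genes with enough reads to be tested. RNA-seq was done on A375, a cell line from a human metastatic melanoma, used at passages 30 to 32. Cells were treated for 24 h with DMSO as vehicle, with 5 µM rosiglitazone (RGZ), with 2 µM T0070907, or with 5 µM RGZ and 2 µM T0070907 together, called the combination below. DMSO was present in all 4 conditions. RGZ activates the nuclear receptor PPARγ and T0070907 blocks it. The comparison of RGZ with vehicle asks which genes respond to the agonist. That of the combination with RGZ asks which responses are lost when the antagonist is added. Each condition had 3 libraries, 1 from each of 3 experiments, so that libraries of the same experiment form pairs between conditions. A375 is a single cell line, and the results describe no other.

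Triglyceride is stored in lipid droplets and is taken apart in steps. *PNPLA2* encodes ATGL, which removes the first fatty acid, and *ABHD5* encodes CGI-58, a protein without lipase activity of its own that activates ATGL. *LIPE* encodes hormone-sensitive lipase, which acts mainly on the resulting diglyceride, and *MGLL* encodes monoglyceride lipase, which releases the last fatty acid from glycerol and also degrades the endocannabinoid 2-arachidonoylglycerol. *PNPLA3* encodes a close relative of ATGL found on lipid droplets. *LIPA* encodes lysosomal acid lipase, which works outside this cascade, on triglyceride and cholesteryl esters delivered to the lysosome. In fat tissue several of these genes are known PPARγ targets.

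The coding sequences show the feature that separates ABHD5 from the enzymes. The active site of such lipases carries a serine between glycines, and the stretches below, from the GENCODE 29 transcripts, show the codons of the pattern Gly-X-Ser-X-Gly, where X is any residue, in capitals. In *ABHD5* the capitals mark Gly-X-Asn-X-Gly, in which asparagine takes the place of serine.

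PNPLA2: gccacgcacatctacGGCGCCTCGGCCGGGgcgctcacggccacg

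PNPLA3: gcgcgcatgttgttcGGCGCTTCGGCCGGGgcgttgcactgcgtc

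ABHD5: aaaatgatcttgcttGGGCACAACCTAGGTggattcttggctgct

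LIPE: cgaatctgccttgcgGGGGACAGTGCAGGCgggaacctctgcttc

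MGLL: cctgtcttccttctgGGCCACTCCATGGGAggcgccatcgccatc

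LIPA: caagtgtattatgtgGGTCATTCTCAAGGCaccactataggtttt

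The serine pattern was found once in the coding sequence of *PNPLA2* and of *PNPLA3*, in both starting at codon 45, and once in that of *LIPE*, starting at codon 723. *MGLL* and *LIPA* each held 2 matches, and the second, which contains the known active serine, is shown, starting at codon 130 in *MGLL* and at codon 172 in *LIPA*. *ABHD5* held 0 matches to the serine pattern and 1 to the asparagine pattern, at codon 151. In GRCh38 coordinates of GENCODE 29, *PNPLA2* lies at chr11:818902-825573 on the plus strand, *PNPLA3* at chr22:43923739-43964488 on the plus strand and *ABHD5* at chr3:43690108-43734371 on the plus strand. *LIPE* lies at chr19:42401507-42427426, *MGLL* at chr3:127689062-128052190 and *LIPA* at chr10:89213569-89414557, all on the minus strand. The counts themselves were made on hg19 per the submitters' processing notes, and no coordinate was carried between the builds.

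The libraries held between 8319455 and 11375227 counts. Counts are given below as CPM, in which each library is brought to a common total after TMM scaling, which adjusts the library totals for differences in composition. Genes were tested with edgeR's quasi-likelihood method, and a gene was called when its p-value, adjusted by the Benjamini-Hochberg method over all tested genes, was under 0.05. Each test was also run with the experiment as a further term in the model, called the replicate block, since the libraries are paired by experiment. Of 11 genes of the melanocyte lineage 7 were tested, and *SOX10* was at a mean of 310.9 CPM in vehicle, whereas the pigment genes *TYR* and *DCT* had at most 0 and 1 counts in any library. The adipocyte marker *ADIPOQ* had 0 counts in every library and the 6 adipocyte markers summed to between 1.85 and 6.62 CPM. In bulk RNA, fewer cells with a transcript and less transcript per cell cannot be told apart. The RGZ library of experiment 2 stood apart, since 35 of 13218 genes with an average of 1 CPM or more were at least 2-fold higher in 1 library than in any other, and for 28 of the 35 that library was this one. As a check of the treatment, the PPAR targets *FABP4*, *ANGPTL4*, *PDK4* and *CPT1A* were all called higher with RGZ. RGZ was at 1.70, 1.83 and 1.63 times vehicle in the 3 experiments for *CPT1A*, the enzyme that admits fatty acids to mitochondrial oxidation, and 6.55, 7.37 and 6.02 for *PDK4*, a kinase that restrains glucose oxidation. With the block all 4 targets were called lower in the combination than with RGZ, and all 4 higher than with T0070907 alone. These comparisons called 11.4% and 8.76% of all tested genes. Without the block 4 and 0 targets were called, and against vehicle the combination called 0 in either fit. *ANGPTL4* had 46, 103 and 388 counts in the combination, beside 30, 44 and 71 in vehicle and 5, 4 and 11 with T0070907. How fully T0070907 blocked the receptor was not tested.

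Levels between the genes were compared per kb of the longest annotated transcript in the vehicle libraries. *PNPLA2* was the most abundant with 34.8 ± 2.13 CPM per kb (SD, n = 3), followed by *LIPA* with 22.0 ± 6.45. *MGLL* had 8.50 ± 1.64 CPM per kb, *ABHD5* had 5.86 ± 0.636, *PNPLA3* had 2.77 ± 0.529 and *LIPE* had 0.920 ± 0.161. The ranges of neighbouring genes in this order did not overlap, and the median of all tested genes was 7.82 CPM per kb. The same order held in 11 of the 12 libraries. In the RGZ library of experiment 2, *LIPE* was above *PNPLA3*.

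**Figure D1:**
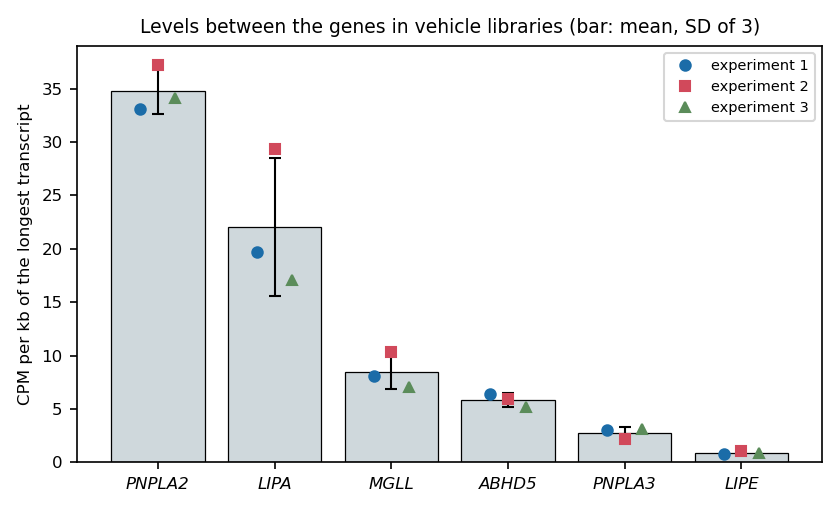
Level of the 6 genes in the vehicle libraries, in CPM per kb of the longest annotated transcript (bars: mean of 3 libraries, error bars: SD, symbols: the 3 experiments). *PNPLA2* stood at 34.8 CPM per kb and *LIPE* at 0.920, and *LIPA* had the widest spread, with experiment 2 at 29.3 and experiment 3 at 17.1.

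The genes differed in where their variation lay. Over the 12 libraries, the experiment accounted for 80.9% of the variance of the log2 CPM of *LIPA*, 62.9% of that of *PNPLA2* and 53.6% of that of *PNPLA3*, against a median of 27.7% over the tested genes. For *MGLL* the experiment accounted for 15.8% and the condition for 56.9%, against a median of 34.4% for the condition. *PNPLA2* was among the steadier genes, with an SD of 0.10 on the log2 scale, and 15.5% of tested genes had a lower one. *LIPE* had an SD of 0.50, and 90.3% of tested genes had a lower one.

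**Figure D2:**
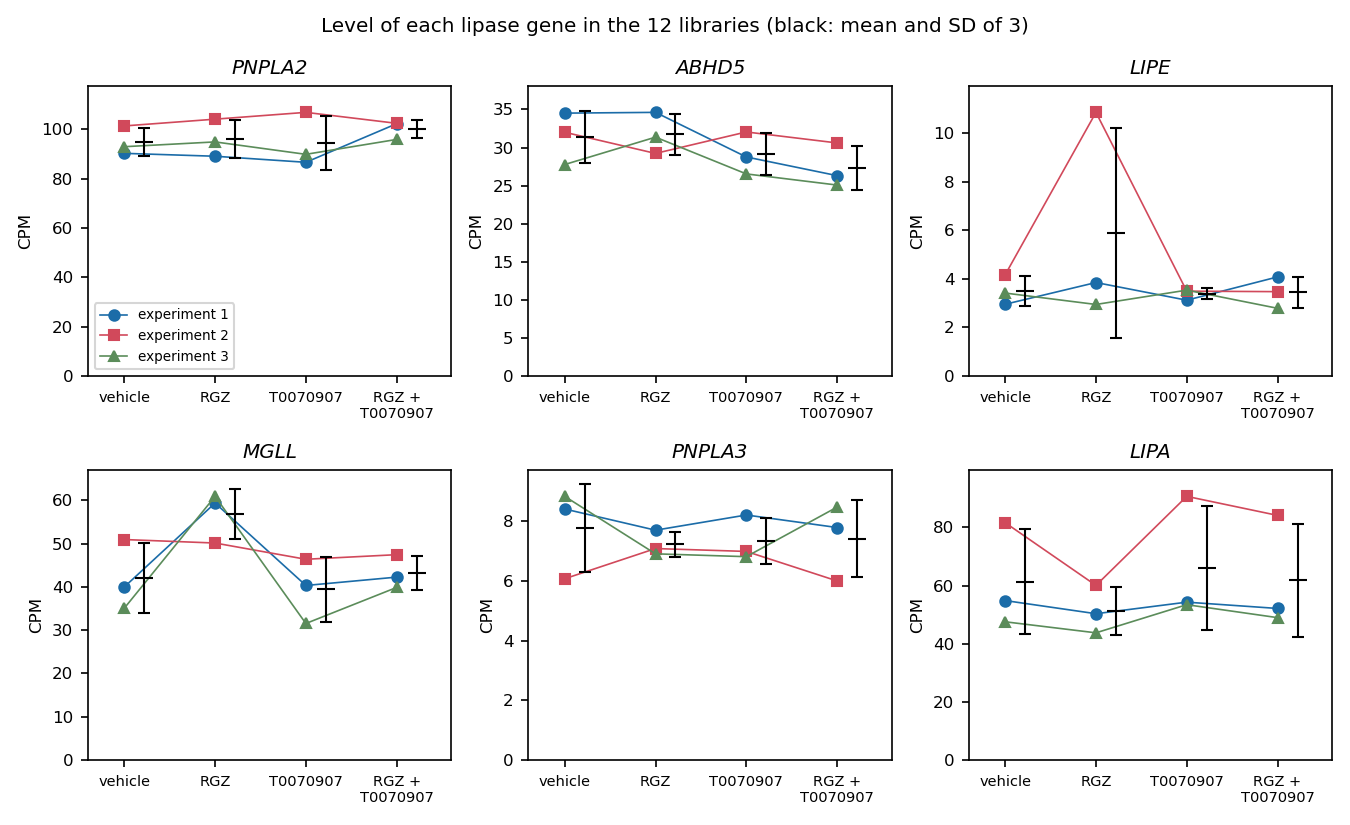
CPM of each gene in the 12 libraries, by condition, with lines joining the libraries of an experiment (black: mean and SD of the 3 libraries of a condition). *MGLL* was at 59.4 and 60.9 CPM in the RGZ libraries of experiments 1 and 3 but near its vehicle level in experiment 2, *LIPE* was high in 1 library, and *LIPA* was highest in experiment 2 in every condition.

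Of the 6 genes, *MGLL* alone was called in any comparison when all libraries were used, and that with the replicate block. It was higher with RGZ and lower in the combination than with RGZ. Without the block none of the 6 was called in any of the 6 comparisons by edgeR, by DESeq2 or by limma-voom. At an unadjusted p under 0.05 edgeR without the block listed 1 of the 6 for RGZ against vehicle and 1 for the combination against RGZ, *MGLL* in both, and 0 in the other 4 comparisons. Of all tested genes 10.5% and 13.1% were at that threshold in the first 2. With the block it listed 3 of the 6 for RGZ against vehicle (*MGLL*, *LIPE* and *LIPA*) and 4 for the combination against RGZ (the same 3 and *ABHD5*), beside 22.1% and 25.6% of all tested genes. Across all tested genes, the test of RGZ against vehicle called 1.24% without the block and 9.3% with it, the latter being 4.95% higher and 4.35% lower. The combination against RGZ called 1.24% without the block and 11.4% with it, the latter being 5.55% higher and 5.88% lower. With 1 gene of 6 called in each, nothing particular to the 6 genes can be read from these counts. The 2 comparisons share the RGZ libraries, and the 3 comparisons with vehicle share the vehicle libraries, so their values for a gene are not independent.

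*MGLL*, the last enzyme of the cascade, was at 40.0, 50.9 and 35.1 CPM in the vehicle libraries of experiments 1, 2 and 3. With RGZ it was at 59.4, 50.1 and 60.9 CPM. Experiments 1 and 3 were higher with RGZ and experiment 2 was not, so that the vehicle library of experiment 2 lay among the RGZ libraries and the groups overlapped. RGZ was at 1.49, 0.984 and 1.74 times vehicle in the 3 experiments. The log2 fold change was 0.44 (SE 0.16, edgeR adjusted p = 0.303) without the block and 0.45 (SE 0.12, 95% interval 0.21 to 0.70, edgeR adjusted p = 0.0178) with it. An exact two-sided permutation test of the 3 RGZ against the 3 vehicle libraries gave p = 0.2, where 0.1 is the smallest that 3 against 3 allows. That test ignored the pairing by experiment, unlike the fit with the block. With the block, leaving out vehicle 1, vehicle 3, RGZ 1 or RGZ 3 ended the call, with edgeR adjusted p between 0.0933 and 0.173. Leaving out all 4 libraries of experiment 2 raised the log2 fold change to 0.69, with an edgeR adjusted p of 2.31e-05, and leaving out experiment 1 or 3 ended the call, at 0.0814 and 0.398. Of the genes of the treatment check, *CPT1A* and *PDK4* had their highest ratio of the 3 experiments in experiment 2, and *ANGPTL4*, a secreted inhibitor of lipoprotein lipase, was at 112.8, 86.0 and 53.7 times vehicle. *FABP4*, a fatty acid carrier, had 1 count in each vehicle library and 1895, 3513 and 1648 with RGZ. The part of these differences between the experiments in the values of *MGLL* was not tested.

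With T0070907 alone *MGLL* was at 40.3, 46.4 and 31.5 CPM, and in the combination at 42.2, 47.4 and 39.9 CPM. These libraries lay within or near the range of vehicle, and all 3 combination libraries were below all 3 RGZ libraries. How many of all tested genes separated in this way was not counted, so the separation cannot be read as particular to *MGLL*. The combination was at 0.712, 0.946 and 0.655 of RGZ in the 3 experiments, and the log2 fold change was -0.41 (SE 0.12, 95% interval -0.65 to -0.16, edgeR adjusted p = 0.0289) with the block and -0.40 (SE 0.16, edgeR adjusted p = 0.306) without it. The exact permutation p was 0.1. With the block, leaving out RGZ 1, RGZ 3 or combination 3 ended the call, with edgeR adjusted p between 0.0819 and 0.254, as did leaving out experiment 1 (0.113) or experiment 3 (0.300). Against vehicle, *MGLL* changed by 0.05 on the log2 scale in the combination (95% interval -0.21 to 0.30, with the block) and by -0.09 with T0070907 alone (-0.35 to 0.16). The interaction, which asks whether the response to RGZ differed with T0070907 present, was -0.31 (SE 0.17, 95% interval -0.67 to 0.04, edgeR adjusted p = 0.560) with the block and did not pass the test.

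**Figure D3:**
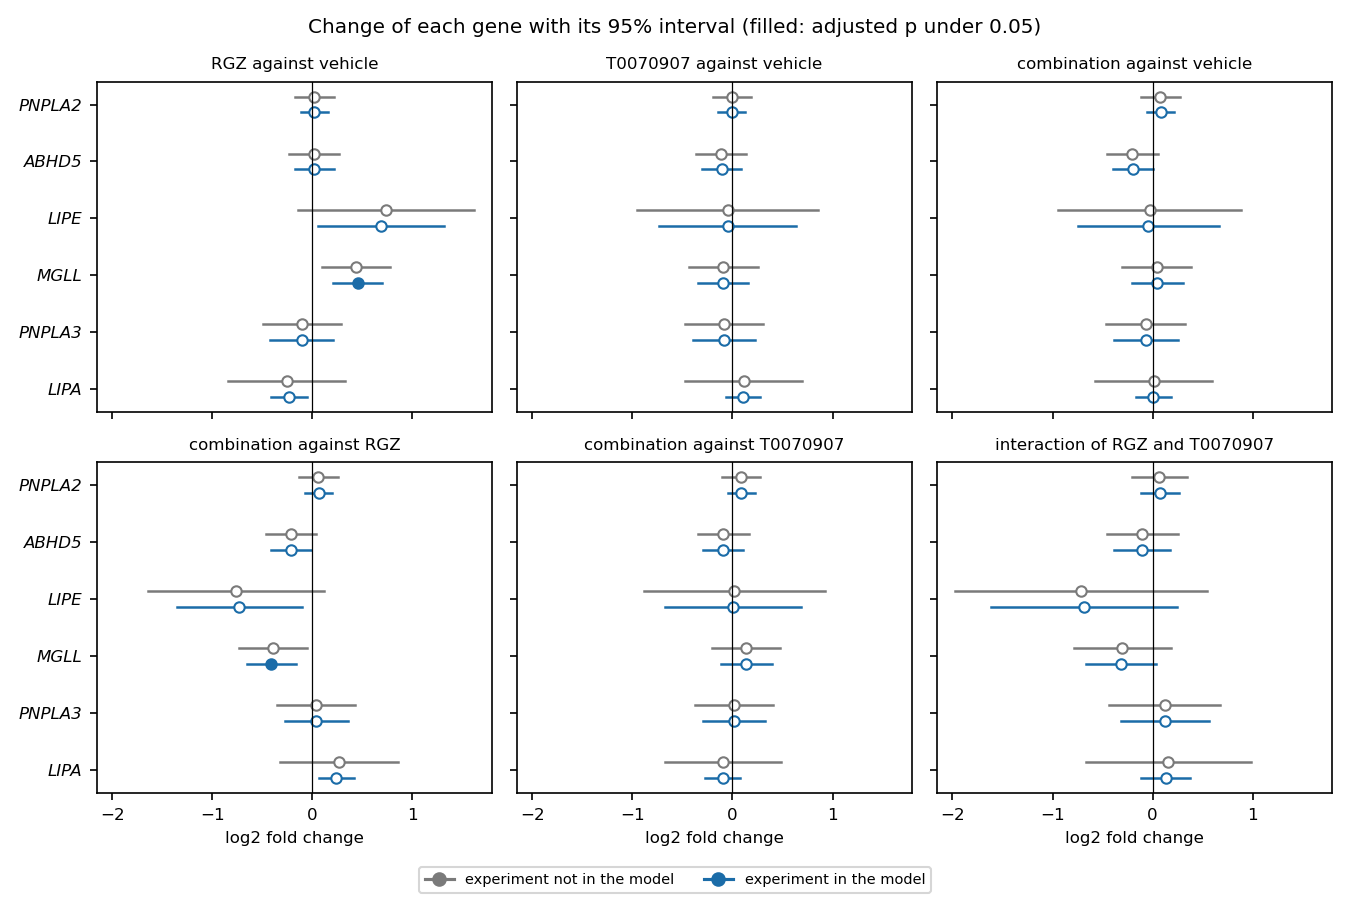
Log2 fold change of each gene in the 6 comparisons with its 95% interval (grey: experiment not in the model, blue: replicate block, filled: adjusted p under 0.05). *MGLL* carries both filled points, at 0.45 for RGZ against vehicle and -0.41 for the combination against RGZ, and the intervals of *LIPE* are the widest.

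*PNPLA2*, the first enzyme of the cascade, was at 90.3, 101 and 93.0 CPM in vehicle and at 89.1, 104 and 94.9 CPM with RGZ. T0070907 libraries were at 86.6, 107 and 89.9 CPM and combination libraries at 102, 102 and 95.9 CPM. The 4 conditions overlapped throughout. The log2 fold change for RGZ against vehicle was 0.02 (SE 0.06, edgeR adjusted p = 0.911) with the block, and its 95% interval, -0.12 to 0.15, runs from 0.922-fold to 1.11-fold. For T0070907 against vehicle the change was -0.0077 (95% interval -0.14 to 0.13) and for the combination against vehicle 0.08 (-0.06 to 0.21). The exons of *PNPLA2* share 401 bases with the antisense gene *AP006621.1*, for which no NCBI gene number and so no count was found.

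*ABHD5*, the activator of ATGL, was at 34.5, 32.0 and 27.8 CPM in vehicle, at 34.6, 29.2 and 31.4 under RGZ, at 28.8, 32.0 and 26.5 under T0070907 and at 26.3, 30.6 and 25.1 in the combination. The lowest libraries of experiments 1 and 3 were those of the combination. The combination against RGZ gave a log2 fold change of -0.22 (SE 0.09, edgeR adjusted p = 0.156) with the block, with ratios of 0.760, 1.05 and 0.799, and was called when RGZ 2 (-0.33, edgeR adjusted p = 0.0494) or all of experiment 2 (-0.37, edgeR adjusted p = 0.0205) was left out. Against vehicle the combination was at -0.20 (95% interval -0.40 to 0.0040, edgeR adjusted p = 0.243), lower in 3 of 3 experiments. RGZ against vehicle was at 0.02 (-0.18 to 0.22), higher in 2 of 3 experiments. None of these passed the test with all libraries. The exons of *ABHD5* share 170 bases with *ANO10* on the opposite strand, which had between 261 and 423 counts. Whether reads were counted by strand is not stated.

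*LIPE*, which encodes hormone-sensitive lipase, was the least abundant of the 6. Its counts were 26, 35 and 29 in vehicle, and RGZ libraries had 37, 95 and 29. T0070907 libraries had 27, 39 and 41 counts and combination libraries 33, 33 and 26. The RGZ library of experiment 2 was at 10.8 CPM (exact Poisson 95% interval 8.78 to 13.3), and the other 11 libraries were between 2.79 and 4.16 CPM. Poisson intervals cover counting error alone. The log2 fold change for RGZ against vehicle was 0.73 (SE 0.40, edgeR adjusted p = 0.574) without the block and 0.69 (SE 0.30, edgeR adjusted p = 0.182) with it. Without that library it was -0.05 without the block and 0.0056 (edgeR adjusted p = 0.998) with the block. The combination against RGZ moved in the same way, from -0.73 (edgeR adjusted p = 0.127) with the block to -0.04 without that library, and *LIPE* was called there when RGZ 3, combination 1 or all of experiment 1 was left out (edgeR adjusted p = 0.0405, 0.0196 and 0.0388). In that library the droplet gene *CIDEC*, which is also an adipocyte marker, had 31 counts against at most 10 in the others, while *ADIPOQ* had 0 and *PLIN1* at most 3 in any library. The part of these genes in the value of *LIPE* was not tested. The antisense gene *LIPE-AS1*, which shares 500 bases of exon with *LIPE*, had 7 counts there and between 2 and 7 in the others. Of the 13218 genes, 12 exceeded their second highest library by as much as *LIPE* did (2.60-fold), 8 of them in that library.

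*PNPLA3*, the relative of ATGL, had between 51 and 79 counts in every library. It was at 8.40, 6.07 and 8.83 CPM in vehicle, at 7.69, 7.08 and 6.90 under RGZ, at 8.20, 6.98 and 6.81 under T0070907 and at 7.78, 5.99 and 8.47 in the combination. All conditions overlapped. The log2 fold change for RGZ against vehicle was -0.11 (SE 0.15, 95% interval -0.42 to 0.21, edgeR adjusted p = 0.736) with the block, an interval that runs from 0.747-fold to 1.16-fold. The exons of *PNPLA3* share 148 bases with the neighbouring gene *SAMM50* on the same strand, which had between 694 and 963 counts, and it is not stated how shared reads were counted.

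*LIPA*, the lysosomal lipase, was at 54.8, 81.6 and 47.5 CPM in vehicle and at 50.3, 60.1 and 43.7 CPM with RGZ. T0070907 libraries were at 54.3, 90.7 and 53.4 CPM and combination libraries at 52.1, 84.1 and 49.0 CPM. Experiment 2 was the highest in each of the 4 conditions, and within every experiment the RGZ library was the lowest. RGZ was at 0.917, 0.736 and 0.920 of vehicle. The log2 fold change was -0.23 (SE 0.08, 95% interval -0.41 to -0.06, edgeR adjusted p = 0.0994) with the block, which missed the threshold, and -0.26 (SE 0.27, edgeR adjusted p = 0.795) without it. For the combination against RGZ it was 0.24 (SE 0.08, 95% interval 0.06 to 0.42, edgeR adjusted p = 0.0732) with the block, with ratios of 1.04, 1.40 and 1.12. Experiment 2 held the largest difference in both. Without RGZ 2 the change from vehicle was -0.11 (edgeR adjusted p = 0.623). Without RGZ 1 the gene was called in both comparisons, at -0.32 (edgeR adjusted p = 0.0493) from vehicle and 0.33 (edgeR adjusted p = 0.0430) for the combination against RGZ. The second comparison was also called without combination 1 (edgeR adjusted p = 0.0297) or experiment 1 (edgeR adjusted p = 0.0235). *IFIT2*, an interferon-induced gene on the opposite strand that shares 65 bases of exon with *LIPA*, was also highest in experiment 2 in every condition, at 6.90, 4.22, 7.88 and 8.20 CPM for vehicle, RGZ, T0070907 and the combination. The antisense gene *AL353751.1*, for which no NCBI gene number was found, shares 135 bases of exon with *LIPA*. It is not stated whether reads were counted by strand, and the part of these overlapping genes in the level of *LIPA* was not tested.

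In the remaining comparisons none of the 6 genes was called with or without the block, nor at an unadjusted p under 0.05 by edgeR in either fit. Of all tested genes, the share at that threshold without and with the block was 3.1% and 9.82% for T0070907 against vehicle, 10.6% and 21.2% for the combination against vehicle, 15% and 27.8% for the combination against T0070907, and 3% and 9.79% for the interaction. T0070907 against vehicle called 0.0074% of tested genes without the block and 0.91% with it. The combination against vehicle called 0% in both fits, with 1438 genes at an unadjusted p under 0.05 without the block and 2868 with it, and 0 genes by DESeq2. The combination against T0070907 called 0.037% without the block and 8.76% with it. The interaction called 0% without the block, with 406 genes at an unadjusted p under 0.05 and 1 gene by DESeq2, and 0.281% with the block. For T0070907 against vehicle the log2 fold changes of the 6 genes with the block lay between -0.11 (*ABHD5*) and 0.11 (*LIPA*), and for the combination against T0070907 between -0.10 (*LIPA*) and 0.14 (*MGLL*).

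The genes around these lipases were taken from 7 lists with 97 genes, of which 70 were tested. For RGZ against vehicle 8 of the 70 were called higher and 2 lower with the block, and 2 were called higher and 0 lower without it. The 10 called with the block are 14.3% of the 70, beside 9.3% of all tested genes. The median log2 fold change with the block was -0.02 over the 70 and -0.0096 over all tested genes. For the combination against RGZ 4 were called higher and 10 lower with the block, and 0 higher and 2 lower without it. The 14 called with the block are 20% of the 70, beside 11.4% of all tested genes (5.55% higher and 5.88% lower). With the block T0070907 against vehicle called 3 of the 70 (4.29%, beside 0.91% of all tested genes) and the combination against T0070907 called 9 (12.9%, beside 8.76%), and without it they called 0 and 1. For T0070907 against vehicle 4 of the 70 had an unadjusted p under 0.05 by edgeR without the block, and DESeq2 called 2 and limma-voom 0. The combination against vehicle called 0 with or without the block. In that last comparison 7 of the 70 had an unadjusted p under 0.05 by edgeR without the block and 12 with it, and DESeq2 and limma-voom called 0.

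The proteins that coat lipid droplets and control ATGL held the largest changes. *PLIN2*, the main droplet coat of most cells, was at 386.3 ± 19.9 CPM in vehicle, 2374 ± 242 with RGZ, 176.4 ± 3.73 with T0070907 and 517.7 ± 195.7 in the combination (SD, n = 3 each). RGZ was 5.74, 6.55 and 6.12 times vehicle in the 3 experiments, with a log2 fold change of 2.62 (SE 0.13, edgeR adjusted p = 4.84e-10) with the block. *PLIN4*, a coat of nascent droplets, rose by 4.11 on the log2 scale (SE 0.20, edgeR adjusted p = 4.84e-10), from 44, 85 and 59 counts to 998, 1674 and 892. Both were called without the block too, and both were called lower with T0070907 than with vehicle with the block. In the combination both were above T0070907 alone with the block, by 1.52 for *PLIN2* (edgeR adjusted p = 6.49e-06) and by 3.14 for *PLIN4* (edgeR adjusted p = 8.07e-05). The interaction of *PLIN2* was called with the block (-1.10, SE 0.18, edgeR adjusted p = 0.0301) and was the only one called among the 70 genes, and it was not called without the block (edgeR adjusted p = 1.00). The other 7 tested genes of this list of 14 were not called for RGZ. The ATGL inhibitor *G0S2* had at most 2 counts in any library, *PLIN1* and *PLIN5*, the coats that hold ABHD5 in fat and oxidative tissues, at most 3 each, and *CIDEA* 0. A second ATGL inhibitor, *HILPDA*, was tested and was at -0.0057 (edgeR adjusted p = 0.986) for RGZ against vehicle. *SERPINF1*, whose product binds ATGL, was higher in the combination than with RGZ by 0.71 (SE 0.20, edgeR adjusted p = 0.0282) with the block, and was not called without it (edgeR adjusted p = 0.237).

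Within the families of the 6 genes, 3 of 6 other PNPLA genes were tested and 0 were called in any comparison by edgeR with or without the block, by DESeq2 or by limma-voom. At an unadjusted p under 0.05 edgeR listed 0 of them without the block, and with it 1 for the combination against RGZ. *PNPLA6*, a lysophospholipase, was at 88.9 ± 6.43 CPM in vehicle and 84.1 ± 6.70 with RGZ. Of the 20 other ABHD genes 19 were tested, and 2 were called higher for RGZ with the block, beside 4.95% of all tested genes. Without the block 0 were called by edgeR, DESeq2 or limma-voom, and 3 had an unadjusted p under 0.05 by edgeR. *ABHD6*, a second monoglyceride hydrolase that shares the endocannabinoid substrate of *MGLL*, had 138, 102 and 137 counts in vehicle and 199, 159 and 255 with RGZ. Its log2 fold change was 0.55 (SE 0.11, edgeR adjusted p = 0.00235) with the block, with RGZ above vehicle in 3 of 3 experiments, and 0.56 (edgeR adjusted p = 0.301) without it. *ABHD17C*, which removes palmitate from proteins, rose by 0.45 (SE 0.07, edgeR adjusted p = 2.15e-04) with the block. With the block both were lower in the combination than with RGZ, with log2 fold changes of -0.41 for *ABHD6* (edgeR adjusted p = 0.0179) and -0.33 for *ABHD17C* (edgeR adjusted p = 0.00370). With the block both were also higher in the combination than with T0070907 alone, by 0.60 (edgeR adjusted p = 0.00680) and 0.32 (edgeR adjusted p = 0.0138). Their interactions, 0.05 for *ABHD6* (edgeR adjusted p = 0.955) and -0.14 for *ABHD17C* (edgeR adjusted p = 0.697), did not pass the test. *ABHD8* was the third gene called for the combination against T0070907 with the block (0.37, edgeR adjusted p = 0.0222), and it was at 0.29 for RGZ against vehicle (edgeR adjusted p = 0.0602). None of these calls of the 3 genes was made by edgeR without the block.

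Of 11 other hydrolases of neutral lipid 8 were tested, and for RGZ against vehicle 0 were called by edgeR with or without the block, 0 by DESeq2 and 0 by limma-voom, and 0 had an unadjusted p under 0.05 in either edgeR fit. *NCEH1*, a cholesteryl ester hydrolase, was lower in the combination than with RGZ (-0.42, SE 0.12, edgeR adjusted p = 0.0274) with the block, and was not called without it (edgeR adjusted p = 0.352). With the block it was at -0.04 for RGZ against vehicle (edgeR adjusted p = 0.885) and at -0.39 for T0070907 against vehicle (edgeR adjusted p = 0.170), neither of which passed the test. Of the 13 acid and extracellular lipases 1 was tested, *LPL*, the lipase that acts on circulating lipoproteins at the vessel wall. *LPL* had 107, 28 and 149 counts in vehicle, and RGZ libraries had 177, 94 and 243. T0070907 libraries had 67, 34 and 173 counts and combination libraries 68, 45 and 166. The groups overlapped, and within experiments RGZ was 1.51, 3.22 and 1.41 times vehicle, which gave 0.75 (SE 0.17, edgeR adjusted p = 0.00790) with the block and 0.71 (edgeR adjusted p = 0.749) without it. The call was lost without vehicle 3. None of the other 12 exceeded 14 counts in any library.

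Lipolysis is switched on in fat cells by cAMP and protein kinase A, and 15 of 18 genes of this control were tested. With the block 1 was called higher and 1 lower for RGZ against vehicle, beside 4.95% and 4.35% of all tested genes. Without it 0 were, with 2 at an unadjusted p under 0.05 by edgeR, 1 called by DESeq2 and 0 by limma-voom. *PDE4B*, a phosphodiesterase that breaks down cAMP, had 46, 35 and 78 counts in vehicle and 22, 15 and 36 with RGZ, and fell by 1.26 on the log2 scale (SE 0.21, edgeR adjusted p = 4.35e-04) with the block. It was higher with T0070907 than with vehicle (0.77, edgeR adjusted p = 0.0194) and higher in the combination than with RGZ (1.13, edgeR adjusted p = 0.00139), both with the block. *PRKAR1A*, a regulatory subunit of protein kinase A, rose by 0.25 (SE 0.06, edgeR adjusted p = 0.0100) with the block, and was not called without vehicle 3 or RGZ 3. *GNAS*, the stimulatory G protein, was called for the combination against RGZ (0.23, edgeR adjusted p = 0.00705) with the block, and not without it (edgeR adjusted p = 0.686). With the block that comparison called 2 of the 15 higher and 3 lower, beside 5.55% and 5.88% of all tested genes. The combination against T0070907 called 0 higher and 3 lower with the block, beside 8.76% called in either direction. Without the block both called 0. The mean of *PRKAR1A* was 394.8 CPM with RGZ and 319.3 in the combination. The β3-receptor *ADRB3*, typical of fat, had at most 1 count.

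In the lysosomal list, where *LIPA* acts, 15 of 15 genes were tested and 3 of them were called with the block when RGZ was compared with vehicle, beside 9.3% of all tested genes. Without the block edgeR and limma-voom called 0 of the 15 and DESeq2 called 1, and 1 had an unadjusted p under 0.05 by edgeR. *NPC2*, which binds the cholesterol that LIPA sets free, had 577, 780 and 505 counts in vehicle and 926, 1090 and 966 with RGZ. It rose by 0.56 (SE 0.07, edgeR adjusted p = 3.09e-05), with the RGZ library above vehicle in 3 of 3 experiments. *PSAP*, the precursor of the saposins, rose by 0.18 (SE 0.05, edgeR adjusted p = 0.0364), and that call was lost whichever of the 6 vehicle and RGZ libraries was left out. *MITF*, a regulator of melanocyte and lysosomal genes, fell by 0.34 (SE 0.08, edgeR adjusted p = 0.00997), and was not called without RGZ 2 or RGZ 3. Leaving out these libraries 1 at a time left between 7 and 10 of the 70 genes called.

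Some markers of cell types moved with RGZ as well. With the block 3 of 7 tested melanocyte genes were lower, *MITF*, *S100B* (-1.02, edgeR adjusted p = 3.73e-05) and *ERBB3* (-0.55, edgeR adjusted p = 1.10e-04), beside 4.35% of all tested genes called lower. The other 4 were not called. Among these, *PAX3* went from a mean of 17.0 CPM in vehicle to 19.4 with RGZ, *EDNRB* from 10.8 to 11.2 and *SOX10* from 310.9 to 281.9. The summed level of the 11 genes ran from 433.5 to 860.9 CPM in vehicle and from 337.4 to 703.3 with RGZ. Of 3 keratinocyte markers *KRT14* was lower (-0.94, edgeR adjusted p = 1.82e-04), and of 3 haematopoietic markers *CD68*, itself a lysosomal protein, was higher (0.42, edgeR adjusted p = 8.27e-04), while *PTPRC* had at most 2 counts. The 3 hepatocyte markers summed to at most 0.706 CPM and the 3 endothelial ones to at most 2.50. Without the block 0 melanocyte, keratinocyte or haematopoietic markers were called for RGZ by edgeR, DESeq2 or limma-voom, and 0 had an unadjusted p under 0.05 by edgeR. The part of cell state or of other cells in the changes of the lipase genes was not tested.

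**Figure D4:**
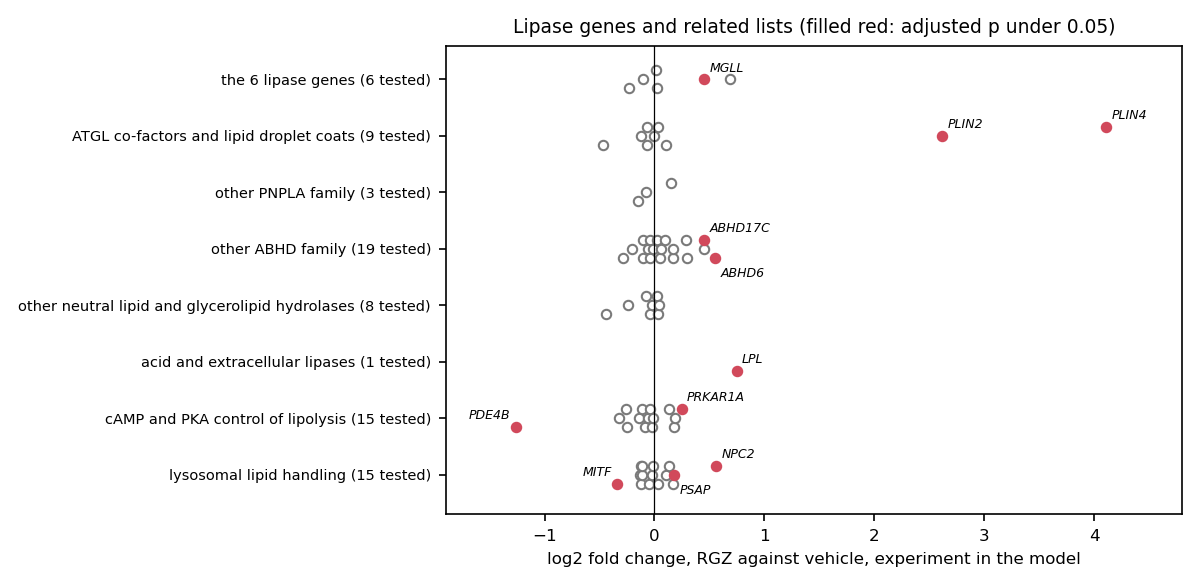
Log2 fold change for RGZ against vehicle with the replicate block, for the 6 genes and the tested genes of the 7 lists (filled red: adjusted p under 0.05, named). *PLIN2* at 2.62 and *PLIN4* at 4.11 lay far to the right, *PDE4B* was the lowest of the called genes, and *MGLL* was the called gene among the 6.

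The genes whose pattern was most like that of each of the 6 were found by Pearson's r of log2 CPM over the 12 libraries after the mean of each experiment was removed, among 13185 genes. For *MGLL* these were *ROBO4* (r = 0.97), *PTX3* (0.94) and *SFT2D2* (0.94), and for *PNPLA2* they were *GDF15* (0.94), *MSRA* (0.92) and *CHLSN* (0.91). For *ABHD5* they were *CCP110* (0.95), *RASSF3* (0.94) and *SLC39A14* (0.94), and for *LIPA* they were *ITGA10* (0.97), *MAP3K12* (0.97) and *SLC24A2* (0.97). For *LIPE* they were *SHANK3* (0.93), *EIF1AD* (0.91) and *TUBB2A* (0.90), and for *PNPLA3* they were *OXTR* (0.94), *CC2D2A* (0.93) and *ZNF137P* (0.91). With so many genes and 12 libraries, values of this size are a description. Between the 6 genes themselves r ran from -0.83 (*LIPE* with *LIPA*) to 0.54 (*ABHD5* with *MGLL*). Relative to the other libraries of experiment 2, its RGZ library was high for *LIPE* and low for *LIPA*.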

How the data were processed

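A375 cells in 4 conditions and 3 experiments gave 12 RNA libraries. The table the authors deposited holds unnormalized read counts of 23705 genes, made on hg19 per the labels. Their aligner, counter, annotation and use of strand are not given in the sources used here. Technical replicates were pooled as RNA before sequencing, so n counts experiments. The table held 0 columns of other samples. NCBI gene numbers were matched to symbols for 23538 genes.

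In R 4.3.3 with edgeR 4.0.16, the 13522 genes that passed filterByExpr were scaled by TMM and fitted by quasi-likelihood over all 12 libraries with 4 groups. P-values were adjusted by Benjamini-Hochberg over all of them. Standard errors were derived from the log2 fold change and the F statistic, and 95% intervals use the t distribution of that fit. Libraries of an experiment deviated together from their group means (18 pairs, r from 0.0793 to 0.758), and the labels name separate experiments, so the block was fitted as an alternative. The other alternatives were DESeq2 1.42.0, limma 3.58.1 (voom, with and without the block), DESeq2's size factors, other filters, the compared groups alone, and leaving out each library. Blocked fits without single libraries or experiments were added after seeing the data. They were run for all 6 comparisons and are given gene by gene for the 2 in which the block gave a call. Permutation tests were exact, two-sided and unpaired. The floor of 3 counts is between 0.258 and 0.371 CPM. Transcript lengths were known for 98.4% of tested genes.

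The genes and lists were chosen with earlier results of these data known. Named were the 6 genes, up to 4 called genes per list by adjusted p with the block, 4 PPAR targets, and the 3 genes most correlated with each of the 6. *CIDEC*, *HILPDA*, *PNPLA6* and the genes near 0 were named after their values were seen, as were the genes whose exons overlap. 1 gene of the lists is not reported here and was left out of their counts.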

Additional observations from a re-analysis of the deposited data

How the results depend on the processing

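The calls of the 6 genes turned on the replicate block. For RGZ against vehicle and for the combination against RGZ, 0 of the 6 genes were called without it and 1, *MGLL*, with it, by edgeR and by limma-voom with the block alike, and the block changed no other call among the 6. DESeq2's size factors, DESeq2, limma-voom, both other filters, the compared groups alone and each left-out library gave 0 calls without the block in all 6 comparisons, and there the log2 fold change of *MGLL* for RGZ against vehicle ran from 0.32 to 0.60 (adjusted p from 0.129 to 0.689). With the block, leaving out a library or an experiment, which was added after seeing the data, gave from 0 to 1 calls for RGZ against vehicle and from 0 to 3 for the combination against RGZ, where 3 were *MGLL*, *LIPE* and *LIPA* without combination 1, 2 were *MGLL* and *ABHD5* without RGZ 2 or experiment 2 and *LIPE* and *LIPA* without experiment 1, and 0 remained without combination 3 or experiment 3. Without RGZ 1 the call there was *LIPA* in place of *MGLL*, and without RGZ 3 it was *LIPE*. The depth gave *LIPE* 26 to 95 counts a library and *PNPLA3* 51 to 79, fewer than the other 4 genes. The order of levels was the same with median transcript lengths.

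Over all tested genes the calls without and with the block were 167 and 1258 for RGZ against vehicle, 1 and 123 for T0070907, 0 and 0 for the combination against vehicle, 167 and 1545 for the combination against RGZ, 5 and 1185 for the combination against T0070907, and 0 and 38 for the interaction. Limma-voom with the block called 1220, 109, 0, 1466, 1009 and 21, and DESeq2 called 299, 21, 0, 314, 81 and 1. Without any filter T0070907 called 3 and the combination against T0070907 10. The compared groups alone gave 69 for RGZ, 41 for the combination against RGZ and 0 for the combination against T0070907. Leaving out a library gave 45 to 88 for RGZ, 53 to 130 for the combination against RGZ, 0 to 1 for T0070907, 0 to 14 for the combination against T0070907 and 0 to 1 for the interaction without the block. With the block it gave 400 to 1091 for RGZ and 513 to 2575 for the combination against RGZ, experiments included.

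Signs of uncalled changes turned when single libraries were left out without the block, and the cause was not tested. For RGZ against vehicle the log2 fold change ran from -0.044 to 0.069 for *PNPLA2*, from -0.067 to 0.088 for *ABHD5*, from -0.047 to 1.06 for *LIPE* and from -0.41 to 0.0024 for *LIPA*. For T0070907 it ran from -0.10 to 0.052 for *PNPLA2*, -0.24 to 0.014 for *PNPLA3*, -0.16 to 0.091 for *LIPE*, -0.23 to 0.069 for *MGLL* and -0.19 to 0.37 for *LIPA*. For the combination against vehicle it ran from -0.22 to 0.065 for *PNPLA3*, -0.16 to 0.11 for *LIPE*, -0.072 to 0.20 for *MGLL* and -0.28 to 0.27 for *LIPA*. For the combination against RGZ it ran from -0.073 to 0.17 for *PNPLA3*, -1.09 to 0.017 for *LIPE* and -0.023 to 0.41 for *LIPA*. For the combination against T0070907 it ran from -0.090 to 0.15 for *PNPLA3*, -0.11 to 0.15 for *LIPE* (and -0.0032 by limma-voom with all libraries), -0.0070 to 0.27 for *MGLL* and -0.39 to 0.20 for *LIPA*. For the interaction it ran from -1.04 to 0.066 for *LIPE* and -0.13 to 0.46 for *LIPA*. With the block it ran, for RGZ against vehicle, from -0.0022 to 0.043 for *PNPLA2*, -0.24 to 0.030 for *PNPLA3* and -0.058 to 0.13 for *ABHD5*, and, for the combination against RGZ, from -0.0048 to 0.11 for *PNPLA2* and -0.10 to 0.15 for *PNPLA3*. The blocked fits without a library or experiment were also run for the other 4 comparisons. They are given as counts, a choice made after seeing their values: 0 of 252 log2 fold changes of the 6 genes were called and 34 had the opposite sign to the fit with all libraries.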
